A study of Homo sapiens with 5 samples.

Results

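MOLT-4 is a human leukaemia cell line of the T lineage (T-ALL). Its chromatin was examined here at the genes of the TAL1, LMO and LYL1 oncogene group and their partner LDB1. Peaks were taken from 5 windows of hg19 given by gene: TAL1 with STIL (chromosome 1, 47.64 to 47.80 Mb), LYL1 (chromosome 19, 13.20 to 13.23 Mb), LMO1 (chromosome 11, 8.22 to 8.32 Mb), LMO2 (chromosome 11, 33.86 to 34.00 Mb) and LDB1 (chromosome 10, 103.85 to 103.90 Mb). A peak belonged to a window when it shared at least 1 bp with it. The windows together span 480 kb and held 37 of 51392 peaks, namely 13 of 13181 for H3K4me3, 24 of 36736 for RUNX1 and 0 of 1475 for SMA4. The study profiled MOLT-4 cells, with no drug or genetic change named in the labels, by CUT&RUN, in which a nuclease tethered to an antibody cuts out the chromatin it binds and the fragments are sequenced. One library each was made with an antibody to H3K4me3 (Epicypher), to RUNX1 (Abcam) and to a target labelled SMA4 (Cell Signalling Technology), whose name the labels do not spell out. The 2 IgG controls were not analysed here. With 1 library per antibody, no value below has a replicate error and no test was run.

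TAL1 and LYL1 are related basic helix-loop-helix transcription factors that pair with E proteins to bind DNA at E-boxes. The LIM-only proteins LMO1 and LMO2 do not bind DNA themselves but bridge such factors to LDB1, a self-associating scaffold, in complexes that in blood progenitors also take in GATA factors. TAL1, LYL1 and LMO2 act in blood stem and progenitor cells and are shut down as thymocytes mature. Each of them, and LMO1, is expressed abnormally in a subset of T cell acute lymphoblastic leukaemia. STIL, a centriole assembly gene next to TAL1, gives its promoter to TAL1 in leukaemias that delete the sequence between them. RUNX1 is a runt-domain factor of blood cells that binds with the TAL1 complex at many sites in such leukaemias. H3K4me3, a histone mark, gathers at promoters that are in use or poised for it.

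RefSeq promoter windows, each from 250 bases before a gene start to 50 after it, matched 5 of the 6 genes with 6 entries, and LMO2 had no entry. All 6 entries lie on the minus strand, so sequence upstream of these genes lies at higher coordinates. Both strands were searched for TGTGGT, the core that RUNX factors recognise. They were also searched for AGATAA, which factors of the GATA family recognise. The entries shown are those of this group that hold either motif, cut at 30 bases after the start and printed 5′ to 3′ on the minus strand, with the motifs in capitals. Their coordinates belong to GRCh38.p14 and cannot be set beside the hg19 peaks.
TAL1, the more downstream start, chr1:47231686-47231965: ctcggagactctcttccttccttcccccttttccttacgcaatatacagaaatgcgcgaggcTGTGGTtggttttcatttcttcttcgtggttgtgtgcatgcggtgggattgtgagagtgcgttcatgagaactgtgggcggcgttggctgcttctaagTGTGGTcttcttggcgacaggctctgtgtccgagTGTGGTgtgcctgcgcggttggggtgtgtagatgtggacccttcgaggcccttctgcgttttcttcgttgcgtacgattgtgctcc
TAL1, the more upstream start, chr1:47232306-47232585: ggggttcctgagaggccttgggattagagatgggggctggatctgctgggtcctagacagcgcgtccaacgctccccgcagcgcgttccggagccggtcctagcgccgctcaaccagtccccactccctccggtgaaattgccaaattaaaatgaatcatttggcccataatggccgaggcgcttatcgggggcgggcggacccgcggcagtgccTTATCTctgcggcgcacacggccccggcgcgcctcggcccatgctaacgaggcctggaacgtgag
LYL1, chr19:13102829-13103108: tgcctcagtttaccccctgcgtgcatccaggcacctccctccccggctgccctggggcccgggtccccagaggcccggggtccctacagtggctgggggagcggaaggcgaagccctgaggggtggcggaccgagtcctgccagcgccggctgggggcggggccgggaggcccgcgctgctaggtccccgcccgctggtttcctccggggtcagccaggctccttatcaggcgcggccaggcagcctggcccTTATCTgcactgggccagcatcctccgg
The downstream TAL1 start carried TGTGGT 3 times, all before the start, and no AGATAA. Of 35116 RefSeq promoter windows of this length, 13.1% held TGTGGT and 0.125% held it 3 times or more. The upstream TAL1 start and LYL1 carried AGATAA once each, against 10.3% of all promoter windows that held it at least once. The STIL, LMO1 and LDB1 entries held neither motif. The E-box pattern CANNTG occurred in 1 of the 6 entries, the upstream TAL1 start, against 68.7% of all promoter windows. Such matches describe letters, and an hg19 position for these promoters was not determined.

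H3K4me3 was found in the windows of TAL1 with STIL, LYL1 and LDB1, and in neither of the LIM-only windows. RUNX1 was found in all 5 windows and SMA4 in none. By window, H3K4me3 had 4 peaks for TAL1 with STIL, 2 for LYL1, 0 for LMO1, 0 for LMO2 and 7 for LDB1. RUNX1 had 6 peaks for TAL1 with STIL, 5 for LYL1, 1 for LMO1, 7 for LMO2 and 5 for LDB1. In tiles of the same lengths cut from the whole genome, H3K4me3 was present in 31.6% at the 160 kb of TAL1 with STIL, 9.75% at the 30 kb of LYL1, 23.7% at the 100 kb of LMO1, 29.1% at the 140 kb of LMO2 and 14.5% at the 50 kb of LDB1. RUNX1 was present in 50.8%, 21.3%, 41.8%, 48.1% and 29.3% of the tiles of these lengths, in the same order. The LMO2 window thus held the most RUNX1 peaks and no H3K4me3, and the LDB1 window was the only 1 of the 5 with more H3K4me3 than RUNX1 peaks. The RUNX1 list was also cut to its 13181 widest peaks, as many as the H3K4me3 list has. It kept 3 peaks for TAL1 with STIL, 2 for LYL1, 0 for LMO1, 3 for LMO2 and 1 for LDB1. The windows thus kept 9 of 24 RUNX1 peaks, against 13181 of 36736 over the whole list. The lists give called peaks without depth, so a window with 0 peaks is not shown to lack the mark or the factor. No hg19 annotation entered these results, so no peak was placed at a gene start. The order and strand of genes come from RefSeq, and windows also reach into neighbouring genes.

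**Figure D1:**
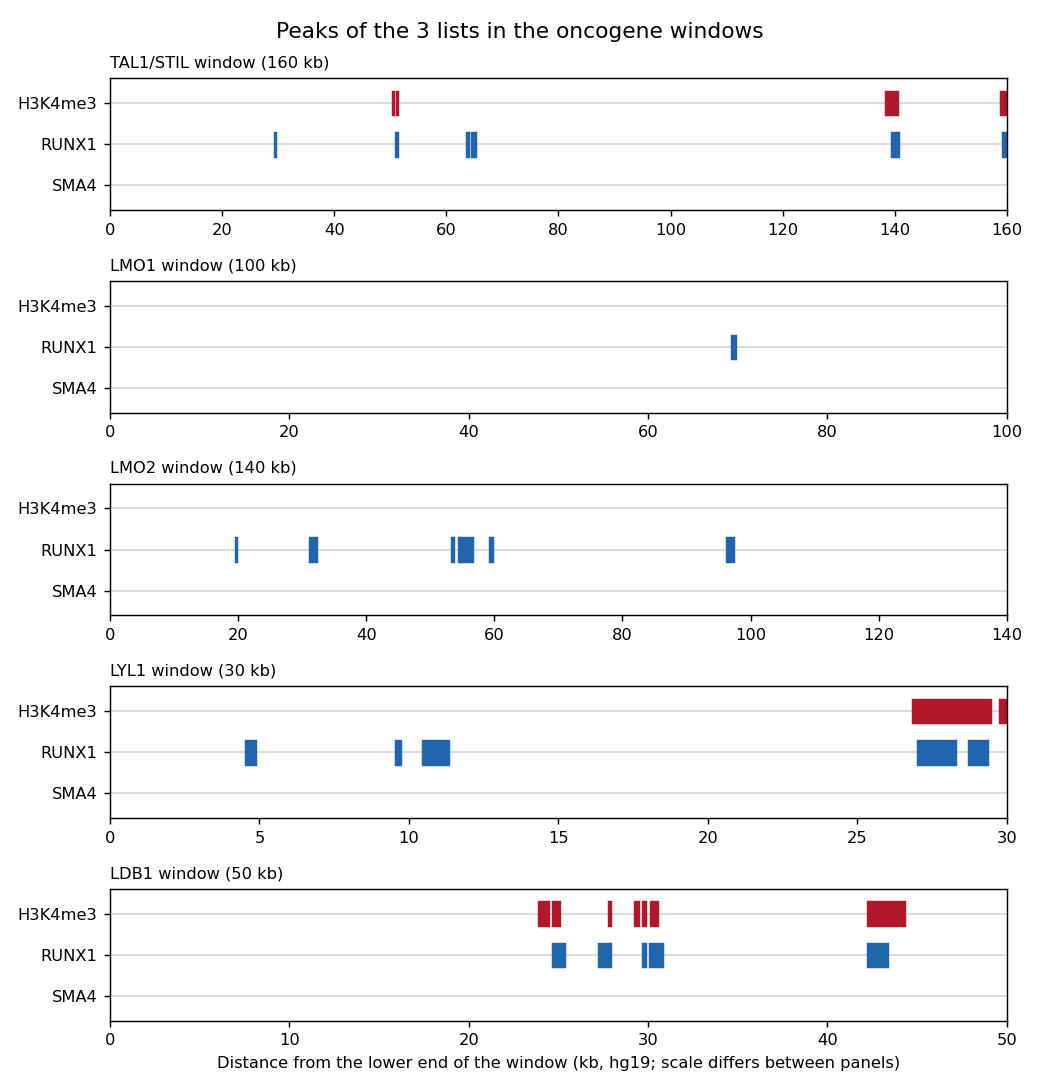
Positions of H3K4me3 (red), RUNX1 (blue) and SMA4 peaks in each of the 5 windows, against the distance in kb from the lower end of the window; boxes are peaks, cut at the window's end. RUNX1 boxes appear in every panel, H3K4me3 boxes in the panels with 4, 2 and 7 such peaks, and SMA4 boxes in none.

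In the windows, 9 of 13 H3K4me3 peaks overlapped RUNX1 (69.2%, exact Clopper-Pearson 95% interval 38.6 to 90.9%), against 88.1% of the whole H3K4me3 list. Of the RUNX1 peaks, 10 of 24 overlapped H3K4me3 (41.7%, 95% interval 22.1 to 63.4%), against 32.2% of the whole RUNX1 list. The intervals cover counting error only and treat peaks as independent, though 6 of the 13 H3K4me3 peaks lie within 6.67 kb at LDB1. No difference from the whole lists was tested. When RUNX1 peaks up to 1 kb away also counted, the H3K4me3 share was 100% in the windows, against 93.7% of the whole list. With only the 13181 widest RUNX1 peaks it was 30.8% in the windows, against 62.8% of the whole list. Of those widest RUNX1 peaks, 4 of 9 in the windows overlapped H3K4me3 (44.4%), against 57.1% of all 13181, so that the RUNX1 share lay above its list with all peaks and below it with the widest alone. The H3K4me3 peaks fell into separate sizes. The 4 peaks of 1000 bp or more, from 2073 to 2672 bp, all overlapped RUNX1, against 99.2% of such peaks in the list. Of the 9 narrower peaks, from 191 to 621 bp, 5 overlapped RUNX1, against 78.1% of the 6935 such peaks in the list. For the 10 RUNX1 peaks at the mark the median width was 729 bp, against 1012 bp for the 11846 such peaks of the list. The 14 without the mark had a median of 519.5 bp, against 527 bp for the 24890 such peaks of the list.

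**Figure D2:**
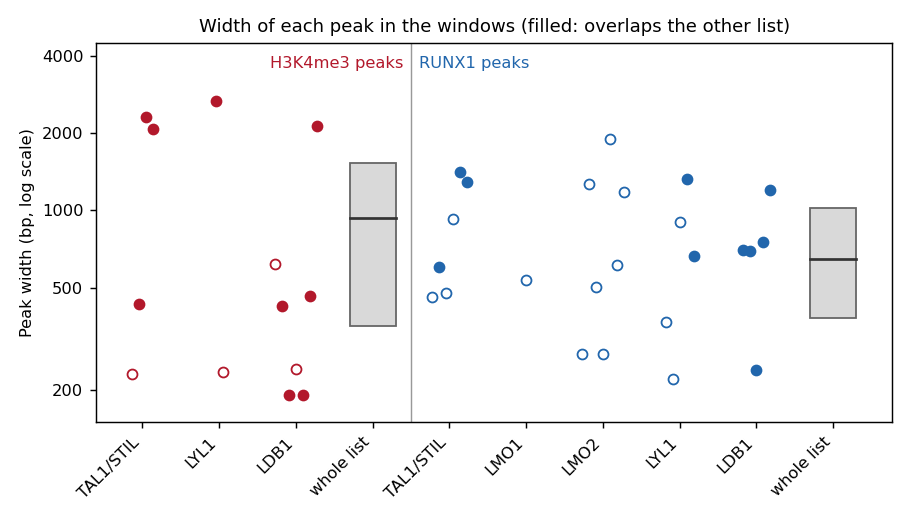
Width in bp, on a log axis, of every H3K4me3 and RUNX1 peak in the windows; each point is a peak, filled where it overlaps the other list, and grey boxes give the quartiles and median of the whole list. The 4 filled H3K4me3 points at 2073 bp or more lie above the upper quartile of 1524 bp, and the widest RUNX1 peak, of 1889 bp in the LMO2 window, is an open point.

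The window of TAL1 with STIL held a narrow pair of H3K4me3 peaks and 2 wide ones, far apart. The narrow peaks ran on chromosome 1 from 47690381 to 47690610 (230 bp) and from 47690970 to 47691400 (431 bp), with 359 bp between them. The wide peaks ran from 47778342 to 47780659 (2318 bp) and from 47798864 to 47800936 (2073 bp). The peak of 2073 bp crossed the end of the window. A gap of 86.9 kb without H3K4me3 separated the narrow pair from the first wide peak. In RefSeq order TAL1 is followed at higher coordinates by STIL, on the same strand, and then by CMPK1, a nucleotide kinase gene on the plus strand. Which start, if any, each H3K4me3 peak lies at was not determined. Peaks of 2318 bp or more made up 6.91% of the H3K4me3 list, whereas 85.8% of the list was at least as wide as the peak of 230 bp.

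RUNX1 lay at both wide peaks and at the wider of the narrow pair. The RUNX1 peak from 47690808 to 47691411 (604 bp) covered all 431 bp of the narrow H3K4me3 peak and reached 162 bp beyond its lower end and 11 bp beyond its higher end. The RUNX1 peak from 47779285 to 47780693 (1409 bp) shared 1375 bp with the H3K4me3 peak of 2318 bp and passed its higher end by 34 bp. The RUNX1 peak from 47799160 to 47800446 (1287 bp) lay wholly inside the H3K4me3 peak of 2073 bp. The remaining 3 RUNX1 peaks of this window had no H3K4me3. Of these, 2 stood 392 bp apart, from 47703523 to 47703997 (475 bp) and from 47704390 to 47705313 (924 bp). They lay 12.1 and 13.0 kb from the narrow H3K4me3 pair on its higher side, which is the upstream direction for TAL1. Small insertions upstream of TAL1 are known to create an enhancer in some T cell leukaemias, and whether these peaks lie at that place was not examined. The last RUNX1 peak, from 47669241 to 47669698 (458 bp), lay 20.7 kb from the pair on its lower side. Of 160 kb tiles of the genome, 11.0% held 6 or more RUNX1 peaks, and 28.6% of the tiles with H3K4me3 did.

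The window of LYL1, the close relative of TAL1, held RUNX1 in 2 separate places, and at 1 of them, near the TRMT1 and NACC1 end, it lay in H3K4me3. A run of 3 RUNX1 peaks without H3K4me3 lay on chromosome 19 within 6.80 kb. They ran from 13204528 to 13204894 (367 bp), from 13209525 to 13209745 (221 bp, the minimum width of the list) and from 13210431 to 13211331 (901 bp). The nearest H3K4me3 peaks were 14.7 kb away on the lower side for the first, and 17.1 and 15.5 kb away on the higher side for the others. NFIX, on the plus strand, is the next gene below LYL1 in RefSeq order, and the run was not assigned to either gene. The remaining 2 RUNX1 peaks, from 13226987 to 13228313 (1327 bp) and from 13228690 to 13229354 (665 bp), lay wholly inside an H3K4me3 peak from 13226812 to 13229483 (2672 bp). That peak was the widest H3K4me3 peak of the 5 windows, and 3.73% of the list was as wide or wider. It was followed 242 bp further on by an H3K4me3 peak of 235 bp, from 13229726 to 13229960, without RUNX1. The wide peak ended 0.517 kb before the end of the window. In RefSeq order LYL1 is followed on that side by TRMT1, a tRNA methyltransferase gene on the minus strand, and NACC1, a transcriptional regulator gene on the plus strand, so both are transcribed outward from neighbouring starts. Which of these starts, if any, the wide peak lies at was not determined, and it was not assigned to LYL1. No H3K4me3 peak lay in the 26.8 kb of the window below the wide peak. RUNX1 covered 116 bases per kb of this window, the highest of the 5 windows, against 9.62 bases per kb over the whole list. Of 30 kb tiles, 0.868% held 5 or more RUNX1 peaks, and 5.32% of the tiles with H3K4me3 did.

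The LMO2 window held RUNX1 and no H3K4me3 peak. Its 7 RUNX1 peaks on chromosome 11 covered 43.0 bases per kb of the window, against 9.62 over the whole list. A group of 4 began 53.2 kb into the window and spanned 6.57 kb, from 33913241 to 33913745 (505 bp), 33914322 to 33914597 (276 bp), 33914710 to 33916598 (1889 bp) and 33919198 to 33919809 (612 bp). The peak of 1889 bp was the widest RUNX1 peak of the 5 windows, and 4.85% of the RUNX1 list was as wide or wider. Of the 1780 RUNX1 peaks at least that wide, 560 (31.5%) had no H3K4me3. On the lower side lay peaks from 33879576 to 33879852 (277 bp) and from 33891016 to 33892286 (1271 bp), 11.2 kb apart. On the higher side, 36.4 kb past the group, lay a peak from 33956213 to 33957396 (1184 bp). The peaks over 1 kb were thus spread over the window and not gathered in the group alone.

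No H3K4me3 peak was called in the LMO2 window or within 50 kb of it on either side. The nearest peaks of the mark lay 63.9 kb below the window, from 33795471 to 33796123 (653 bp), and 72.6 kb above it, from 34072567 to 34075702 (3136 bp). In RefSeq order LMO2 lies between FBXO3, an F-box gene, and CAPRIN1, an RNA-binding protein gene. The 7 RUNX1 peaks stood 83.5 to 123 kb from the nearest H3K4me3 peak. Of all RUNX1 peaks without H3K4me3, 37.3 to 27.8% lay as far or farther. Of 140 kb tiles, 6.63% held 7 or more RUNX1 peaks, and 18.7% of these 1435 tiles had no H3K4me3. Of 1785 RUNX1 regions of 4 or more peaks, joined where gaps were at most 12.5 kb, 37.6% had no H3K4me3. The group of 4 at LMO2 was such a region.

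The LMO1 window held 1 RUNX1 peak and no peak of the other lists. It ran on chromosome 11 from 8289271 to 8289804 (534 bp), 69.3 kb into the window of 100 kb, and 60.4% of the RUNX1 list was as wide or wider. The nearest H3K4me3 peak lay 280 kb away on the lower side, from 8008564 to 8009654 (1091 bp). On the higher side the mark first returned 383 kb past the window, from 8703256 to 8705641 (2386 bp). RUNX1 also first returned 211 kb below and 384 kb above the window, so the peak stood alone over a long stretch. Among RUNX1 peaks without H3K4me3, 11.6% lay as far or farther from the mark. Of 100 kb tiles with exactly 1 RUNX1 peak, 63.5% had no H3K4me3. The LMO1 peak is not among the 13181 widest of the 36736 RUNX1 peaks. The lists give no score, so how strongly it was called is unknown.

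**Figure D3:**
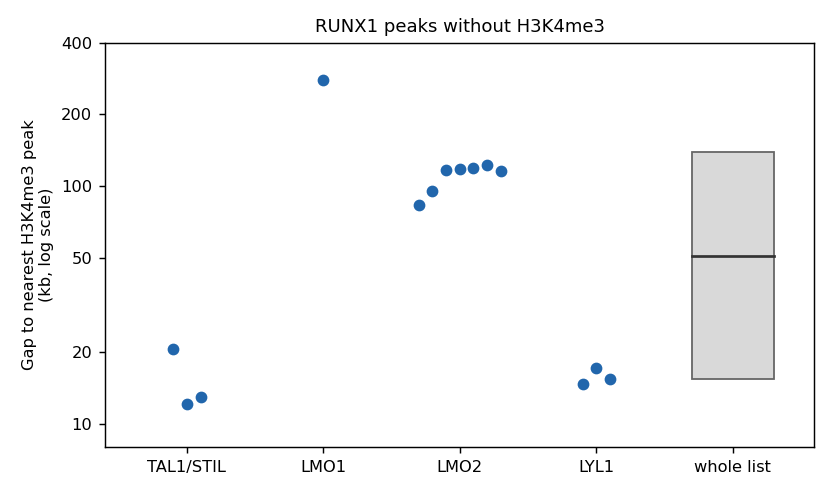
Gap in kb, on a log axis, between each RUNX1 peak without H3K4me3 in the windows and the nearest H3K4me3 peak; points are peaks and the grey box gives the quartiles and median of the 24890 such RUNX1 peaks of the list. Points for TAL1/STIL and LYL1 lie between 12.1 and 20.7 kb, those for LMO2 between 83.5 and 123 kb and that for LMO1 at 280 kb, against a median of 51.0 kb in the list.

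The 6 unmarked RUNX1 peaks of the TAL1 with STIL and LYL1 windows lay 12.1 to 20.7 kb from H3K4me3, below the list median of 51.0 kb. The 8 of the LMO windows lay 83.5 to 280 kb from it, above that median, and the LDB1 window had none. The LMO windows hold no H3K4me3, which by itself sets a distance to the mark at least as long as that to the end of the window. Over the 14 peaks the median gap was 89.2 kb, against 51.0 kb (quartiles 15.5 and 139 kb) over the list. Several peaks of a window share 1 nearest H3K4me3 peak, so these gaps are not independent.

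The window of LDB1, the scaffold gene, held H3K4me3 in many short pieces. On chromosome 10, 6 H3K4me3 peaks of 191 to 621 bp lay within 6.67 kb, from 103873883 to 103880554, with 2133 bp in peaks. They were 103873883 to 103874503 (621 bp), 103874656 to 103875080 (425 bp), 103877759 to 103877949 (191 bp), 103879225 to 103879465 (241 bp), 103879680 to 103879870 (191 bp) and 103880091 to 103880554 (464 bp). A wide peak, from 103892186 to 103894315 (2130 bp), followed after a gap of 11.6 kb. In RefSeq order LDB1, on the minus strand, is followed by PPRC1, a transcriptional coactivator gene on the plus strand, so these too are transcribed outward from neighbouring starts. Which start, if any, the short pieces or the wide peak lie at was not determined. Of 50 kb tiles, 0.0280% (17 of 60639) held 6 or more H3K4me3 peaks under 1000 bp, and 0.0478% held 7 or more H3K4me3 peaks of any width. Its 5 RUNX1 peaks were matched or passed in 2.31% of these tiles, and in 10.6% of the tiles with H3K4me3. The window was fixed around its gene and the tiles were not, and tiles include sequence without genes, so these shares describe the list and are no test.

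All 5 RUNX1 peaks of the LDB1 window overlapped H3K4me3, against 32.2% of the whole RUNX1 list. That list also counts RUNX1 peaks far from the mark, whereas this window held 7 H3K4me3 peaks in 50 kb. Its 5 RUNX1 peaks also lie within 18.7 kb, so they are not independent. The overlap was 3 of 6 for TAL1 with STIL and 2 of 5 for LYL1, and no difference between windows was tested. In the LMO windows no RUNX1 peak could overlap the mark, since they hold none. At the short pieces RUNX1 was the wider partner. RUNX1 peaks from 103874663 to 103875365 (703 bp), 103879666 to 103879904 (239 bp) and 103880074 to 103880828 (755 bp) covered 98.4%, 100% and 100% of the H3K4me3 pieces of 425, 191 and 464 bp that they met. The RUNX1 peak of 697 bp, from 103877213 to 103877909, covered 79.1% of the other piece of 191 bp. It shared only 151 bp with the mark and reached 546 bp beyond its lower end. The pieces of 621 and 241 bp had no RUNX1. At the wide peak the mark was the wider partner: RUNX1 ran from 103892181 to 103893384 (1204 bp) and covered the lower 56.3% of it, passing its lower end by 5 bp.

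Together the windows held more bases in peaks than the lists did as a whole. H3K4me3 covered 23.5 bases per kb of window, against 4.61 over the list, and RUNX1 covered 38.2, against 9.62. The LYL1 and LDB1 windows, the shortest of the 5, had 96.9 and 85.3 bases per kb for H3K4me3 and 116 and 72.0 for RUNX1, above the other windows for both. With the RUNX1 list cut to its 13181 widest peaks, LMO2 passed LDB1 and the other windows kept their places. This left 74.3 bases per kb for LYL1, 31.0 for LMO2, 24.1 for LDB1, 19.8 for TAL1 with STIL and 0 for LMO1. LMO1 was the only 1 of the 5 windows below the RUNX1 list, at 5.34 bases per kb. The windows were set around genes and the lists also span sequence without genes, so this comparison gives no excess particular to the oncogenes.

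**Figure D4:**
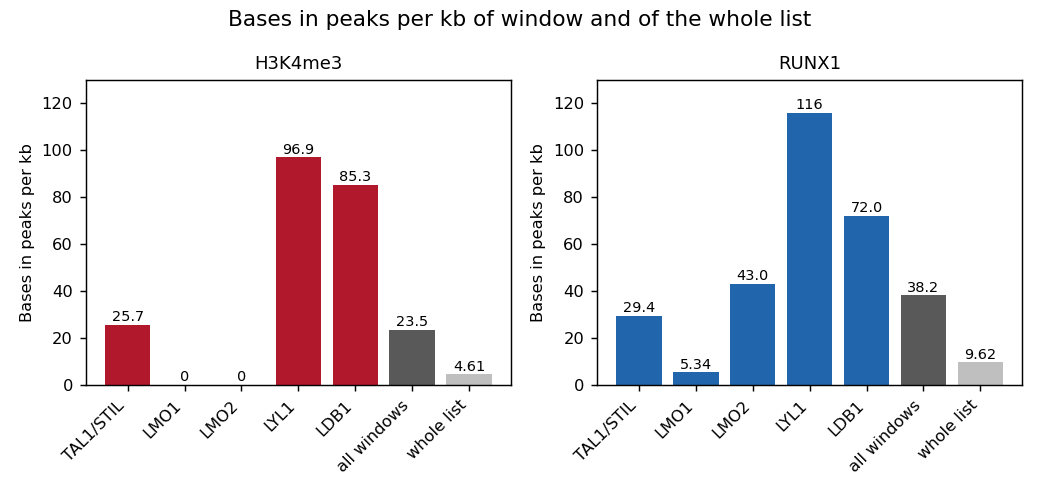
Bases in peaks per kb for H3K4me3 (left) and RUNX1 (right), in each window, in all 5 windows and in the whole list, as bars from 0. H3K4me3 is at 0 for LMO1 and LMO2, where RUNX1 is at 5.34 and 43.0 bases per kb.

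No SMA4 peak lay in any window. At the density of the whole list, 0.486 peaks per Mb, 480 kb would hold 0.233 peaks. Finding 0 is compatible with as many as 3, or 6.25 per Mb. An absence of this target from the oncogene loci was therefore not detectable with a list of this length. The nearest SMA4 peaks outside lay 1.04 Mb below the TAL1 with STIL window, 1.42 Mb below the LMO2 window and 2.38 Mb below the LMO1 window. They lay 6.46 Mb below the LYL1 window and 4.76 Mb below the LDB1 window.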

How the data were processed

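For each library the authors deposited a list of peak positions and names, without score, height or read count, so read depth is unknown. Lists for H3K4me3 and RUNX1 were made with MACS2 and that for SMA4 with cutruntools at a q threshold of 1e-2, per the file headers. MACS2, SEACR and hg19 are named, per the submitters' processing notes. The peak names of both MACS2 lists include p03, whose meaning these sources do not give. They also state no threshold for the MACS2 lists, and no aligner or control for any list. SMA4 differs from the others in antibody, batch folder and pipeline, which cannot be told apart.

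Chromosomes 1 to 22 and X were kept, and coordinates are 1-based. Overlap meant at least 1 bp. Whole-list values and non-overlapping genome tiles of each window's length served as background, each chromosome ending at its last peak. Interval code (Python 3.11.15, NumPy 2.4.6, SciPy 1.17.1) was tested on simulated peaks. Windows, members and motifs were chosen with earlier results of these data known. All H3K4me3 and RUNX1 peaks of the windows are named. A planned count over further TAL1 partner and target genes needed an hg19 annotation and was not run. The alternatives were overlap by 50% of the shorter peak or within 1 kb, membership by midpoint, windows widened by 50 kb, RUNX1 and H3K4me3 lists of equal length, lists without their narrowest peaks and shifted tiles.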

Additional observations from a re-analysis of the deposited data

How the results depend on the processing

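Of 138 recomputed values, 120 were counted as unchanged, 18 as moved and 0 as reversed. Counts and bases stayed if within 1.5 times the main value, and overlap shares if within their interval. Those intervals are wide (38.6 to 90.9% and 22.1 to 63.4%), so staying inside them says little. The 120 also include 8 shares of genome tiles from shifted tiles, which have no interval. Counts, bases and shares have no sign, so a reversal could not occur. Set against their whole lists, both overlap shares did change side. The H3K4me3 share lay below its list with 1 bp overlap (69.2% against 88.1%) and above it within 1 kb (100% against 93.7%). The RUNX1 share lay above its list with all peaks (41.7% against 32.2%) and below it with the widest (44.4% against 57.1%). Windows with 0 peaks could gain one only by widening. Widening by 50 kb added no H3K4me3 peak for LMO1 or LMO2 and no SMA4 peak to any of the 5 windows. The other alternatives could not have changed these counts of 0, which are among the 120. Cutting the RUNX1 list also could not change the H3K4me3 counts and bases of any window, and these too are among the 120. Equal list sizes keep only the widest RUNX1 peaks, here 13181 of 36736 over the whole list and 9 of 24 in the windows. They left 3 RUNX1 peaks for TAL1 with STIL, 0 for LMO1 (0 bp), 3 for LMO2, 2 for LYL1 (2228 bp) and 1 for LDB1 (1204 bp). Of the H3K4me3 peaks, 30.8% then overlapped RUNX1, against 62.8% of the whole list. The list was cut by width, so loss of the LMO1 peak does not show that it was called more weakly. With peaks within 1 kb counted as overlapping, 100% of the H3K4me3 peaks met RUNX1, against 93.7% of the whole list. Widening by 50 kb gave 6 H3K4me3 peaks (8785 bp) and 14 RUNX1 peaks (12365 bp) for LYL1, and 11 (7864 bp) and 10 (7095 bp) for LDB1. The 8 values that moved under widening are these. The windows of LYL1 and LDB1 are the shortest, 30 and 50 kb, so 50 kb on each side lengthens them most in proportion. A further 9 values moved when the RUNX1 list was cut, which can only lower them. Such moves were largely set in advance by window length or list size. The overlap of SMA4 peaks with RUNX1 could not be computed, as the windows hold none. No paired analysis was possible because each antibody had 1 library. Limits come from the use of 1 library per antibody and of peak positions alone, without depth, IgG peaks or hg19 genes.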
